A study of Mus with 4 samples.

Results

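Periportal hepatocyte genes are the genes that hepatocytes near the portal vein use most, and 10 of them were examined here for TBX3 on their chromatin. They were listed by name: Cps1, Ass1, Arg1, Pck1, G6pc, Cyp2f2, Hal, Sds, Gls2 and Hsd17b13. All 10 were found among the 21887 protein-coding genes of the RefSeq annotation of GRCm38.p6, the assembly that matches the mm10 build named by the submitters. The list was set by gene name and not by a score, though with earlier results of these data known.

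The liver lobule is divided along the path of the blood. Cells beside the portal vein receive oxygen and amino acids first and carry out urea synthesis, gluconeogenesis and amino acid breakdown, whereas cells beside the central vein are under Wnt signaling and make glutamine and detoxify drugs. TBX3 is a T-box repressor of the pericentral cells, so the question for the periportal genes is whether the protein sits at genes of the opposite zone.

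The chromatin came from mouse primary hepatocytes carrying pT2-SVNeo-EF1-eGFP-P2A-Tbx3-HA, a construct that drives HA-tagged TBX3 from the EF1 promoter. These cultured cells are not a periportal or pericentral fraction, and TBX3 was made from the construct in all of them, Input included. By the paper's methods, such cells were grown and selected in an expansion medium that holds CHIR99021, an activator of Wnt signaling. The 2 TBX3 ChIP libraries were precipitated with anti-HA antibody, and the 2 Input libraries are sheared chromatin without precipitation. A single track was deposited, with 1 value for each stretch of bases, and which of these libraries entered it is not stated. That value, called the score, is the −log10 p of the ChIP read pileup against a Poisson level expected from Input. No value per library exists in the track, so no score below has a replicate error, and no difference between groups of samples could be tested. RNA is not part of the data, so the cell type could not be checked by its markers.

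No region of TBX3 enrichment was called at any of the 10 periportal genes. To be called, a stretch needed scores of 5 or more over 200 bp or longer, where breaks of 30 bp or less did not end it. None of the 10 genes had one within 1 kb of a gene end, against 0.311% of all protein-coding genes. None had one inside the gene, against 0.347%, and none had one within 10 kb outside it, against 0.48%. For the 3 windows together the share of all protein-coding genes was 0.672%, so 0 of 10 does not set the periportal genes apart from other genes. The nearest called region lay between 726782 bp away, for Ass1, and 17448908 bp away, for Gls2. The median distance was 6289800 bp, beside 6845280 bp for all protein-coding genes.

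Both ends of each gene were used alike, because the gene table has no strand, and the higher of their maxima, taken over 1 kb to each side, is called the end score. The end scores of the periportal genes ran from 1.42 at Cyp2f2 to 3.02 at Hsd17b13. Their median was 2.44, the same as the median of all protein-coding genes. Of the 10 genes, 6 were at or above that median, against 50.5% of all protein-coding genes, and all of these but Hsd17b13 were exactly at it. With the expected level raised on chromosomes of a depth above the autosome median, 3 of the 10 were at or above the median, against 50.4%. The ties were broken by this setting: Ass1 and Pck1 then scored 2.21, beside a median of 2.23, and Gls2 scored 1.62. One gene, Hsd17b13, had an end score of at least 3, against 29.1%. None reached 5, against 3.6%. For scale, the end score was 22.79 at E2f7 and 15.53 at E2f8. These genes code for cell cycle repressors and are the TBX3 sites on which the study turned.

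**Figure D1:**
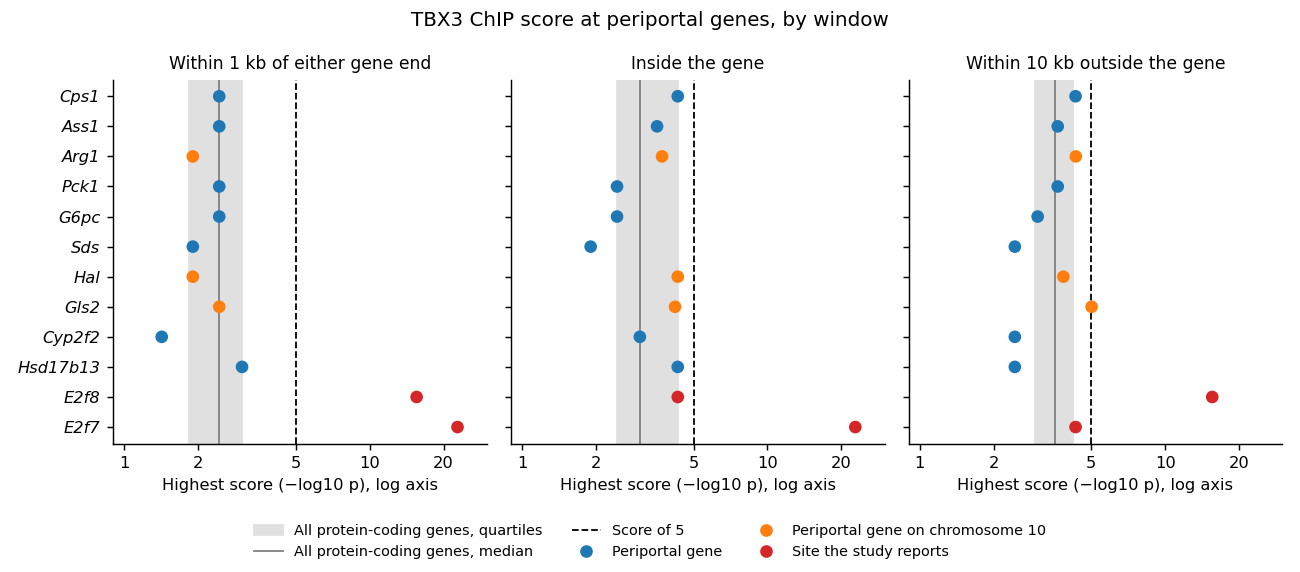
Highest score (−log10 p, log axis) of each periportal gene and of E2f7 and E2f8 in 3 windows, with 1 point per gene. The grey band and line give the quartiles and median of all protein-coding genes and the dashed line the score of 5. Of the periportal points, only Gls2 touches the dashed line, at 5.01 in the window outside the gene, and E2f7 and E2f8 stand at 22.79 and 15.53 at their gene ends.

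The scores follow from few reads. The number of ChIP reads over each base and the expected level were inferred from the score, which takes only certain values because reads are whole. The genome-wide expected level was 2.43 reads. Above it, 7 reads give a score of 2.44, 8 reads give 3.02 and 11 reads give 5.01, so 11 reads, or 4.52 times the genome-wide level, are needed for a score of 5. Equal scores at several genes therefore mean equal read counts, and their order is not resolved.

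The urea cycle turns ammonia into urea. Cps1 (gene 227231), the mitochondrial enzyme that makes carbamoyl phosphate and so feeds ammonia into the cycle, is the longest of the 10 genes, on chromosome 1 from 67122426 to 67231267. Its lower-coordinate end scored 2.44, from 7 reads, and its higher-coordinate end 1.90, from 6 reads. Inside the gene the highest score was 4.31, from 10 reads against 2.43 expected, 53613 bp from the nearer end. This score was as high in 26.8% of all protein-coding genes and in 67.1% of the 1242 genes of like length. The part of length in this difference was not tested. The highest score outside Cps1 was also 4.31, at 9348 bp past its higher-coordinate end.

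Ass1 (gene 11898), which joins citrulline to aspartate, lies on chromosome 2 from 31470270 to 31520670. Its ends scored 1.42 and 2.44, and the score reached 3.55 inside the gene and 3.65 outside it. Arg1 (gene 11846), the arginase that releases urea, lies on chromosome 10 from 24915207 to 24927470. Its ends scored 1.72 and 1.90, with at most 6 reads over a base, although the expected level there was raised in places. Its highest score was 4.32, from 12 reads against 3.34 expected, at 1883 bp outside the higher-coordinate end and near the noncoding gene Gm40616. None of the 3 urea cycle genes thus had an end score above the median of all protein-coding genes.

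Gluconeogenesis ends in free glucose. Pck1 (gene 18534), the cytosolic phosphoenolpyruvate carboxykinase that commits carbon to this pathway, lies on chromosome 2 from 173153073 to 173159274. Its ends scored 1.90 and 2.44, the latter from 7 reads over a stretch of 41 bp at 84 bp inside the higher-coordinate end. No score above 2.44 was found inside the gene, and the highest outside was 3.65, 9990 bp from the gene. G6pc (gene 14377), the catalytic subunit of glucose-6-phosphatase, lies on chromosome 11 from 101367716 to 101377903. Its lower-coordinate end scored 2.44, from 7 reads 83 bp inside the gene, and its higher-coordinate end scored 0.64, the lowest of the 20 gene ends. Inside G6pc the highest score was again 2.44, and outside it 3.02.

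Enzymes of amino acid use come next. Sds (gene 231691), which turns serine into pyruvate, lies on chromosome 5 from 120476547 to 120483932. It was the one periportal gene with no base at a score of 3 or more from 10 kb before to 10 kb after the gene. Its ends scored 1.90 and 1.00, its inside 1.90 and its outside 2.44. Its neighbour Sdsl overlaps its outside window, and Plbd2 overlaps the window at its higher-coordinate end. Hal (gene 15109), which removes ammonia from histidine, lies on chromosome 10 from 93488768 to 93516761. Its ends scored 1.90 and 1.42, and its highest score was 4.31, from 10 reads at 2084 bp inside the lower-coordinate end.

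Gls2 (gene 216456), the liver type of glutaminase that frees ammonia from glutamine, lies on chromosome 10 from 128194635 to 128210004. Both of its ends scored 2.44. It had the highest score of the list, 5.01, from 11 reads against 2.43 expected, at 7882 bp outside its higher-coordinate end and 6092 bp from Spryd4, the nearest other protein-coding gene. The score stayed at or above 5 there for only 7 bp, and its Benjamini-Hochberg adjusted p over all positions of the main chromosomes was 0.0687. Of all protein-coding genes, 10.3% had a score of at least 5 in the same window, and among those on chromosome 10, 25.5% had a score as high as Gls2.

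The other members mark the periportal zone without a part in these pathways. Cyp2f2 (gene 13107), a cytochrome P450, lies on chromosome 7 from 27119955 to 27133660 and had the lowest end score, 1.42, from 5 reads. Its highest score anywhere was 3.02, from 8 reads over 28 bp inside the gene. Hsd17b13 (gene 243168), a dehydrogenase of lipid droplets, lies on chromosome 5 from 103955442 to 103977388 and had the highest end score, 3.02, from 8 reads over 42 bp at 328 bp inside its lower-coordinate end. As many as 29.0% of all protein-coding genes had an end score as high (95% Wilson interval 28.4 to 29.6%). That interval leaves out the error of the read count. With 7 reads the score would be 2.44, which 50.5% of all protein-coding genes reached. Its other end scored 1.00, so the highest end score of the list came from 1 end and not from both. Inside Hsd17b13 the score reached 4.31, from 10 reads.

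**Figure D2:**
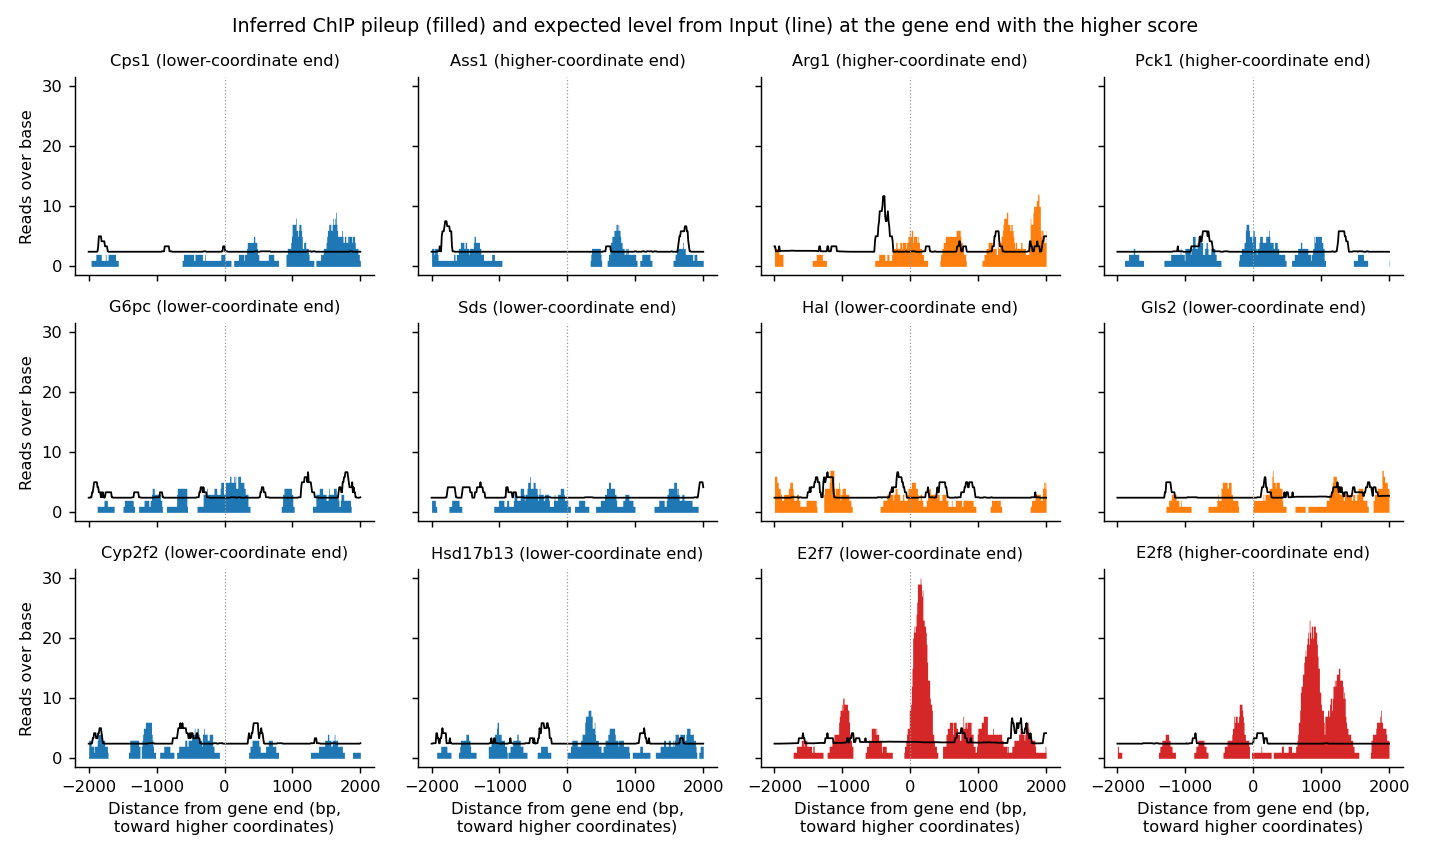
Inferred ChIP reads over each base (filled) and the expected level from Input (line) from 2000 bp before to 2000 bp after the gene end with the higher score, plotted every 10 bp, for the 10 periportal genes, E2f7 and E2f8. Orange marks chromosome 10. Within 1 kb of their ends, periportal genes hold at most 8 reads over a base, whereas E2f7 reaches 31 and E2f8 reaches 23.

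In every one of the 10 genes the highest score lay away from the gene ends, either inside the gene or outside it. The same held for 83.0% of all protein-coding genes, and these windows hold more bases than the gene ends do. Scores of at least 3 were found at 9 of the 10 genes, against 88.3% of all protein-coding genes. They covered 2192 of the 474300 bases of the genes and their 10 kb flanks, or 0.462%, against 0.320% of all bases of the main chromosomes and 0.695% of those of chromosome 10. The longest unbroken run at this level was 118 bp, in Cps1, and so shorter than the 200 bp asked of a region. Scores of at least 5 covered 7 bases, or 0.00148%, against 0.0142% of all bases. Inside the gene, 7 of the 10 genes reached 3, against 61.9% of all protein-coding genes, and none reached 5, against 13.9%. Outside the gene, 7 reached 3, against 74.8%, and 1 reached 5, against 10.3%.

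Reads summed over a whole window are less coarse than a score at 1 base. The reads within 1 kb of both ends were divided by the reads expected from the level at each base. By construction the expected level is the highest of several Input levels and never falls below the genome-wide one. Over all protein-coding genes the median ratio was 0.592. Over the periportal genes it ran from 0.440 at Cyp2f2 to 0.922 at Pck1, with a median of 0.598. For the 10 genes together, 466.7 reads stood against 755.2 expected, a ratio of 0.618 (95% Poisson interval 0.563 to 0.677), and the ratio for all protein-coding genes together was 0.608. The same sums gave 0.601 inside the genes (95% Poisson interval 0.580 to 0.622), against 0.606. Outside them they gave 0.639 (95% Poisson interval 0.615 to 0.664), above the 0.604 of all protein-coding genes. Without Arg1, Hal and Gls2, the genes on chromosome 10, the ratio outside was 0.597 (95% Poisson interval 0.569 to 0.627), against 0.596 for all protein-coding genes of the other chromosomes. These intervals cover the counting of reads only and leave out the spread between genes. They are therefore no test of the 10 genes against all protein-coding genes. The intervals are also too narrow if both mates of a read pair were counted.

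Pck1 had the highest ratio of the list at its ends, though not the highest score. There were 67.7 reads within 1 kb of its ends against 73.5 expected, a ratio of 0.922 (95% Poisson interval 0.716 to 1.17), and 6.40% of all protein-coding genes had a ratio as high. Its interval lay above the median of all protein-coding genes, as did those of 17.3% of all protein-coding genes. The other 9 intervals held the median, against 66.3%. The reads were spread over the window, with no base above 7 reads. Inside Pck1 the ratio was 0.491, which 78.8% of all protein-coding genes reached, and in the 10 kb outside it was 0.750, which 9.03% reached.

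Cyp2f2 was at the other side. At its ends 34.0 reads stood against 77.2 expected, a ratio of 0.440 (95% Poisson interval 0.305 to 0.615), which 79.9% of all protein-coding genes reached. In the 10 kb outside it the ratio was 0.430 (95% Poisson interval 0.365 to 0.503), which 92.7% of all protein-coding genes reached and 95.3% of those on chromosome 7. At the gene ends the interval of Pck1 lies above those of Cyp2f2 and Arg1, while the intervals of all genes other than Pck1 overlap one another. Pck1 and Cyp2f2 were picked as the extremes of the list, and the intervals are not adjusted for the number of pairs. How often the intervals of other gene pairs lie apart was not tested. Read pairs could not be told apart in the track, so counting each pair once was approximated by halving every read count. With each read pair counted once in this way, which widens the intervals, that of Pck1 overlapped all the others as well.

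Inside the genes, 7 of the 10 intervals held the median ratio of 0.597, against 52.1% of all protein-coding genes. Cps1 lay above it with a ratio of 0.640, as 24.1% of all protein-coding genes did. Ass1 at 0.542 and Cyp2f2 at 0.488 lay below it, as 23.7% did. With read pairs counted once, all 10 intervals inside the genes held the median, against 67.3%. Outside the genes, 5 of the 10 intervals held the median of 0.605, against 54.0% of all protein-coding genes. Cyp2f2 lay below it, as 23.9% did. Pck1, Arg1, Hal and Gls2 lay above it, as 22.1% did, and all of these but Pck1 are on chromosome 10. With read pairs counted once, the interval of Hal held the median as well, which made 6 of 10 against 69.6%.

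At E2f7 the ratio of the end windows was 1.43 (95% Poisson interval 1.18 to 1.71), above the intervals of all 10 periportal genes and of 94.3% of all protein-coding genes. At E2f8 it was 1.08 (95% Poisson interval 0.854 to 1.35), above the intervals of 7 of them and of 60.8% of all protein-coding genes, and it overlapped those of Pck1, Gls2 and Hsd17b13. With each read pair counted once, 9 of the 10 were below E2f7, against 78.9% of all protein-coding genes, and 2 were below E2f8, against 27.7%. E2f7 is itself on chromosome 10, where the ratio was higher at most genes (median 0.755), and 0.899% of the protein-coding genes of that chromosome had a ratio as high as E2f7, against 0.256% of all. The study reported E2f7 and E2f8 as bound sites from this same ChIP-Seq. Their high values were thus selected for in advance, and they are given for scale only.

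**Figure D3:**
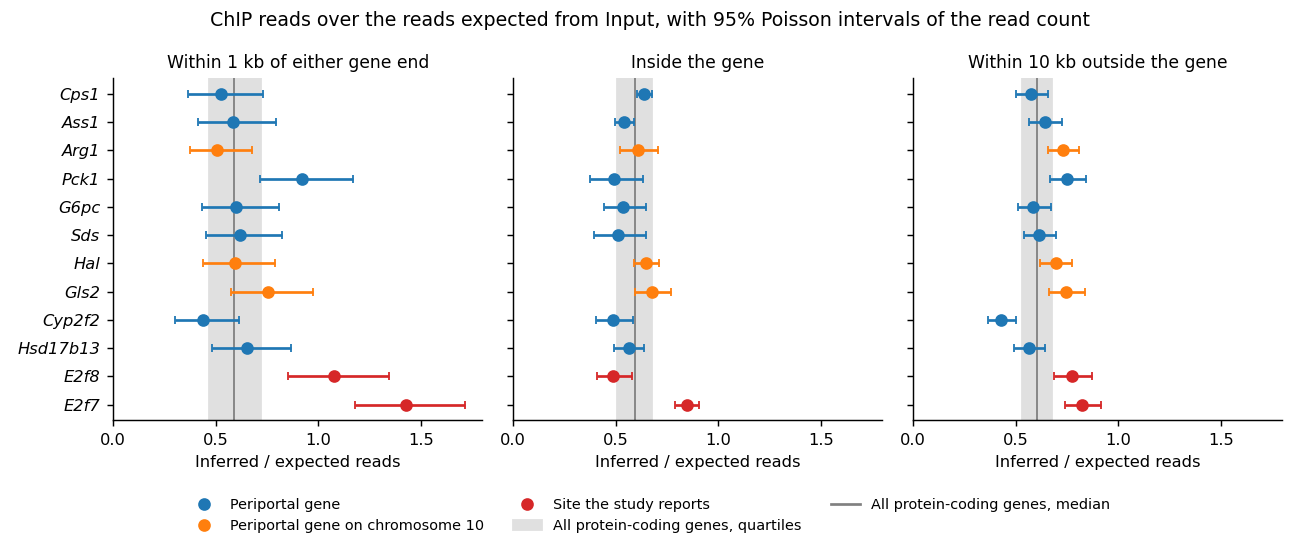
Inferred ChIP reads divided by the reads expected from Input in 3 windows, with 1 point per gene and 95% Poisson intervals of the read count, for the 10 periportal genes, E2f7 and E2f8. Grey gives the quartiles and median of all protein-coding genes and orange marks chromosome 10. At the gene ends, 9 of the 10 periportal intervals hold the grey median of 0.592, and Pck1 lies above it at 0.922.

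Arg1, Hal and Gls2 are on chromosome 10, whose depth of ChIP reads was 1.41 times the autosome median. On the other chromosomes of the list the depth was 0.904 to 1.09 times. Input was raised there as well and set the expected level above the genome-wide value at 72.2% of bases. The protein-coding genes of chromosome 10 had a median end score of 2.98 and a median ratio of 0.755 at their ends. Against these, Gls2 was at the middle, with a ratio of 0.755, while Arg1 at 0.509 and Hal at 0.596 were lower, and 92.0% and 81.8% of the genes of chromosome 10 had a ratio as high. In the 10 kb outside, the ratios of 0.729 at Arg1, 0.695 at Hal and 0.747 at Gls2 were above the median of 0.605 of all protein-coding genes but not above the 0.754 of chromosome 10. With the expected level raised to the depth of the chromosome, the end scores fell to 1.22 at Arg1, 1.22 at Hal and 1.62 at Gls2.

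The same pathways hold other genes that were listed beside the 10. Of 5 other urea cycle genes, none had an end score of at least 3. Otc, which makes citrulline, was the highest at 2.44, and Nags, which makes the activator of Cps1, the lowest at 1.42. Of 5 other gluconeogenesis genes, 1 reached 3. This was Pcx, the pyruvate carboxylase that opens the pathway, with 6.51 from 13 reads at 118 bp outside its lower-coordinate end (adjusted p 0.0103 over all positions). Fbp1, the fructose bisphosphatase, was the lowest at 1.37. Of 10 other genes of amino acid use, 4 reached 3. The highest was Got1, the cytosolic aspartate aminotransferase, with 8.13 from 15 reads at 62 bp outside its higher-coordinate end (adjusted p 0.000558), and the lowest was Etnppl, at 1.27. None of the 20 genes had a called region in any of the 3 windows, against 0.672% of all protein-coding genes. This 0 does not set the 20 genes apart from other genes. At Pcx and Got1 the bases at or above 5 ran for at most 59 and 78 bp. Both lie on chromosome 19, with a depth of 1.19 times the autosome median, and with the expected level raised to that depth they scored 5.63 and 7.10. With read pairs counted once, Pcx scored 3.56 and Got1 4.39, so neither reached 5. The read ratio at the gene ends was 1.44 at Got1 and 1.17 at Pcx, beside 1.43 at E2f7 and 1.08 at E2f8. Of all protein-coding genes, 0.233% had a ratio as high as Got1 and 1.18% one as high as Pcx. Both genes were named for their high scores.

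Together, 5 of the 20 other pathway genes (25%) had an end score of at least 3 and 2 (10%) one of at least 5, beside 29.1% and 3.6% of all protein-coding genes. The median of their end scores was 1.90. With the expected level raised on chromosomes of high depth, 4 of the 20 (20%) reached 3, against 21.5% of all protein-coding genes, and with read pairs counted once 2 (10%) did, against 2.29%.

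Pericentral genes were set beside the periportal ones for the zone in which Tbx3 is made. Of 16 of them, 6 (37.5%) had an end score of at least 3, against 1 of the 10 periportal genes and 29.1% of all protein-coding genes, and the medians were 2.69 and 2.44. With the expected level raised on chromosomes of high depth, 3 of the 16 (18.8%) reached 3, against 21.5% of all protein-coding genes. With read pairs counted once, 1 of the 16 did (6.25%), against 2.29%. No test was made of this difference, since genes of 1 track are not replicates. The highest was Sp5, a Wnt target gene that codes for a zinc finger repressor, with 5.75 from 12 reads at 86 bp inside its lower-coordinate end (adjusted p 0.0307), and it scored 3.56 with read pairs counted once. The lowest was Gulo, an enzyme of vitamin C synthesis, at 1.27. Inside the gene, 6 of the 16 pericentral genes reached a score of 5 and none of the 10 periportal genes did, against 13.9% of all protein-coding genes. Of these 6, all but Sp5 were 72453 to 150881 bp long (Rnf43 the shortest and Aldh1a1 the longest, named after their values were seen), while the periportal genes had a median length of 14538 bp and only Cps1 was longer than Rnf43. The part of length in this count was not tested. None of the 16 pericentral genes had a called region in any window, against 0.672% of all protein-coding genes. This 0 does not set the pericentral genes apart from other genes.

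**Figure D4:**
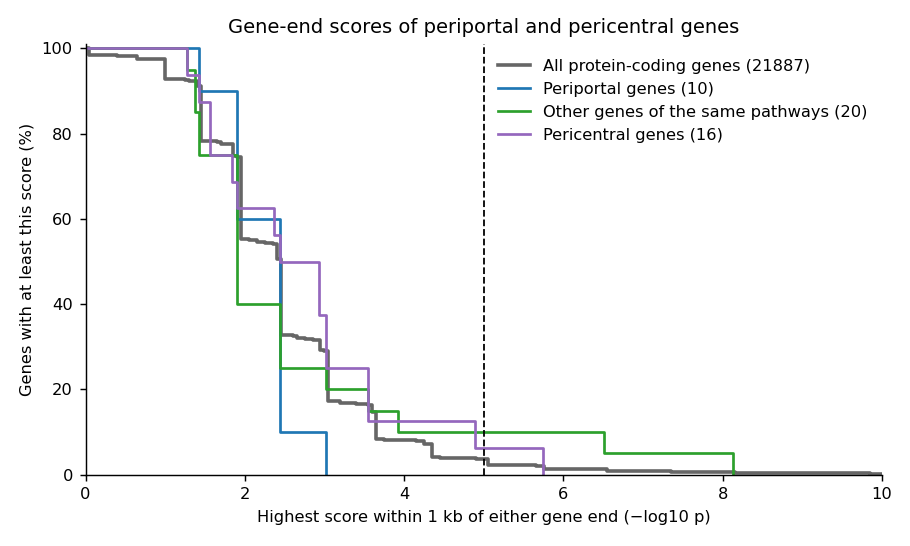
Percent of genes with at least the end score on the x axis (−log10 p), for the 10 periportal genes, 20 other genes of the same pathways, 16 pericentral genes and all 21887 protein-coding genes, with a dashed line at 5. The periportal curve ends at 3.02, while the other lists have single genes up to 8.13 and 5.75.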

How the data were processed

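Chromatin of mouse primary hepatocytes was measured by ChIP-Seq in 2 TBX3 ChIP and 2 Input samples. The authors aligned reads with Bowtie2, used SAMtools for sorting, and deposited −log10 p-values from MACS2. The submitters' processing notes name mm10. Versions, duplicate handling, which libraries entered the track and how they were combined are not given in the sources used here. The track held 0 other columns of per-sample values, and the depth of each library is unknown.

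Scores were read from the deposited −log10 values on 21 main chromosomes. Genes came from RefSeq GRCm38.p6, without strand or sequence, so neither start sites nor motifs were examined. Each score was resolved into a read number and an expected level with that Poisson tail, changing as little as possible along the chromosome. This gave 30093890 ChIP reads on the main chromosomes, with each read taken to be extended to 150 bp. On chromosome 1, 98.5% of rises of the pileup had a fall 150 bp on. The steps were tested on simulated data with Input spread evenly at random, which does not cover depth differences between chromosomes. Adjusted p-values are Benjamini-Hochberg over all positions. Shares have 95% Wilson intervals, which treat genes as draws and leave out the error of the read counts. Read ratios have exact Poisson intervals, which cover counting error only. Genes of like length have 0.8 times the length of the member or more, with an upper limit of the inverse factor.

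Genes named are the 10 members, E2f7, E2f8, in each other list the highest, the lowest and any with an end score of at least 5 or a called region, and genes beside a member's highest score. The members and lists were chosen with earlier results of these data known. Alternatives were other score cutoffs, lengths, gaps and windows, mean scores, all genes, genes of the same chromosome or of like length, read pairs counted once, chromosome depth, and leaving out chromosome 10. For scores with read pairs counted once, the reads over a base were halved and rounded down and the expected level was halved. At the genome-wide level, 6 and 7 reads then both give 1.45. The software was Python 3.11.15 with matplotlib 3.10.9, numba 0.67.0, scipy 1.17.1, pandas 2.3.3 and numpy 2.4.6.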

Additional observations from a re-analysis of the deposited data

How the results depend on the processing

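No paired analysis was possible because the track gives no value per sample, and for the same reason no replicate could be left out. Scoring start sites alone was not run, since no strand was at hand. The number of periportal genes with a called region was 0 under each of the 8 alternatives. Some of these could only remove regions, so their 0 followed from the main setting. They were cutoffs of 10 and of adjusted p 0.05, pairs counted once and expected levels raised on chromosomes of high depth. The others could add regions. With a cutoff of 3, 3.02% of all protein-coding genes had one, and with a length of 100 bp 2.56% did. With breaks up to 100 bp it was 0.927%, and with 20 kb outside 0.813%. Against these shares, 0 of 10 does not set the periportal genes apart. The median end score of 2.44 became 2.73 with windows of 2 kb, 1.90 with 500 bp, 1.45 with read pairs counted once and 2.04 with the expected level raised on chromosomes of a depth above the autosome median (chromosome depth), beside 2.62, 1.90, 1.45 and 2.23 for all protein-coding genes. The median of the mean scores was 0.336, beside 0.333. The number of periportal genes with an end score of at least 3 became 5 with 2 kb, where 45.4% of all protein-coding genes reached it, 0 with pairs counted once, where 2.29% reached it, and 0 with chromosome depth, where 21.5% did. The wider window can only add bases, and neither of the last 2 settings raised the end score of a periportal gene. Without chromosome 10, chosen after seeing the data, the summed read ratio outside the genes became 0.597. The share of genes with an end score as high as the members, 50.5% at the median member, became 46.4% among all genes, 65.3% among genes of the same chromosome, 48.9% with mean scores and 58.2% with 2 kb. With 2 kb it was smaller for 6 members, among them Arg1 (6.11%), Hsd17b13 (11.4%) and Cps1 (23.9%), and larger for 4. For scores inside the gene the share of 38.6% became 61.5% among genes of like length and 55.2% with mean scores, and the cause was not tested. Among genes of like length it was smaller for 6 members, as for Arg1 (17.4%), and larger for 4, as for Ass1 (74.3%). At 2.43 expected reads, a base with fewer than 11 reads, or under 4.52 times that level, scored below 5. This is a bound on the reads seen at a base and not on the true enrichment. A called region also needed 200 bp. How strong a site must be to be called was not tested.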
